A study of Mus musculus with 12 samples.

Results

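The regions described here are wide peaks of the histone variant H2A.Z that were called in spermatogenic cells with an intact Ino80 gene and had no overlapping peak after Ino80 was deleted. They were chosen by 2 values of the peak lists themselves: a wild-type peak had to be over 719 bp wide, and no peak of the knockout list could share 1 bp or more with it. Of 33827 wild-type H2A.Z peaks, 10140 passed the width limit, and 222 of these lacked a knockout peak (2.19% of wide peaks, against 30.1% of wild-type peaks of any width). A knockout peak lay within 2 kb of 28 of them, and the other 194 had none within that distance, so absence here means that no peak of the knockout list touches the region, not that the neighbourhood is empty. The remaining 9918 wide wild-type peaks, which a knockout peak overlapped, are called the other wide peaks.

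Chromatin was immunoprecipitated from spermatogenic cells of postnatal day 18 mouse testes of mixed strain background. H2A.Z was mapped in Ino80cKO cells, in which Stra8-Cre, a recombinase switched on in premeiotic germ cells, had removed Ino80 in the testis, and in Ino80WT cells, with the same antibody against H2A.Z. INO80 itself was mapped in wild-type cells alone. Every group had 2 libraries, but each H2A.Z or INO80 data set analysed here is 1 list of peak positions standing for both libraries of its group, so no value carries a replicate error and depth is unknown. The lists hold nothing that shows the deletion of Ino80. A cell type that Stra8-Cre does not reach would keep Ino80 in the knockout testis, and the lists cannot show how many such cells were present. A peak that is missing from the knockout list may lie just under the authors' threshold, and how far this applies to the 222 peaks was not tested.

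H2A.Z replaces the common histone H2A in nucleosomes beside promoters and at enhancers, where it is linked to accessible DNA. It is deposited by the SRCAP and EP400 complexes, and the INO80 complex, built around the ATPase INO80, slides nucleosomes and has been described as able to exchange H2A.Z. In the male germline, Ino80 is known to be needed for progress through meiosis.

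Of the 222 peaks, 32 of the 218 on the chromosomes covered by the promoter table of RefSeq (build GRCm38.p6, the same assembly as mm10) held an annotated start site of a protein-coding gene (14.7%). Among the other wide peaks this was so for 5557 of 9609 (57.8%), so promoters are a minority of the absent peaks. The promoters of 6 genes with a start site in an absent peak, chosen after their values were seen, are printed as examples. Every CG dinucleotide is in capitals. The first 4 lie in peaks overlapped by INO80 and the last 2 in peaks without it. Each runs 5′ to 3′ in the direction of the gene, from 250 bases before its start site to 50 bases into the transcript. The stretches are chr9:22051974-22052273 on the minus strand for Elavl3, chr15:99251912-99252211 on the minus strand for Mcrs1, chr3:137867425-137867724 on the plus strand for Dnajb14, chr16:18776597-18776896 on the plus strand for Cldn5, chr2:27442186-27442485 on the plus strand for Brd3os and chr2:127521343-127521642 on the minus strand for Kcnip3.
Elavl3: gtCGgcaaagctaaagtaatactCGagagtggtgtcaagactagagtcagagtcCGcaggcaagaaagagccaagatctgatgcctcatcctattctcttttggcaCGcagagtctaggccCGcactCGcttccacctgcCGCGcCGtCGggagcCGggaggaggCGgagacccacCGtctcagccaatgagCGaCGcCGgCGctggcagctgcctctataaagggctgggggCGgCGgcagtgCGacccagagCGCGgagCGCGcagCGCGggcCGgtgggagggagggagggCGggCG
Mcrs1: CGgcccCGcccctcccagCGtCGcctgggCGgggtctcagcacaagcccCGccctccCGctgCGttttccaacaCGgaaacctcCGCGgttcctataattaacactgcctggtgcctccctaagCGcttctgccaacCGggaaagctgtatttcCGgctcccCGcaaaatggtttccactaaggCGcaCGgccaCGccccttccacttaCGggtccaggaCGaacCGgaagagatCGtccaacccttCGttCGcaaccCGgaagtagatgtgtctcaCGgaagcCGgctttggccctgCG
Dnajb14: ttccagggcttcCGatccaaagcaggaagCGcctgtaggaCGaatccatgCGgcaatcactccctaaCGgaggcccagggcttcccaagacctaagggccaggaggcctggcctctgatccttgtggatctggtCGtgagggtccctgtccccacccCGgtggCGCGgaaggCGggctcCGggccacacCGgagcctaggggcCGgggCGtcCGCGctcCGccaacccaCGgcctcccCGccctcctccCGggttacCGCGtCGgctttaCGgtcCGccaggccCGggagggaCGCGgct
Cldn5: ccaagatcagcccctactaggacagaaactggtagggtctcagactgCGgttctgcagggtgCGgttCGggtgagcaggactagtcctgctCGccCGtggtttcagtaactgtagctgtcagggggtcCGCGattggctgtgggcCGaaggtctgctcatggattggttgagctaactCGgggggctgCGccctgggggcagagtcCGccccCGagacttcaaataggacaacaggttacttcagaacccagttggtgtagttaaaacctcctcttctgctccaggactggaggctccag
Brd3os: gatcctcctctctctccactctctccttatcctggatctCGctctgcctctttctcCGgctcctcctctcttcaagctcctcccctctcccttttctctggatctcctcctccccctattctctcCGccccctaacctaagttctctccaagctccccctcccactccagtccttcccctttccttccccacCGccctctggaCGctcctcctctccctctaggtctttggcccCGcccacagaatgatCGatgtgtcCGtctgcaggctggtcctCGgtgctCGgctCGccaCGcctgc
Kcnip3: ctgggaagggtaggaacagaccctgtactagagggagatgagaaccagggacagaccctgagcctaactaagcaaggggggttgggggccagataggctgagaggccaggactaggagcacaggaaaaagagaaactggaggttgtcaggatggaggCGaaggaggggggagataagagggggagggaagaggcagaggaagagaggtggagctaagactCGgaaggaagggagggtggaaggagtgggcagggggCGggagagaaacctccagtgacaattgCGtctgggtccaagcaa

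The sequences ran from 29 CG dinucleotides at Elavl3, whose CpG content was 0.922 of that expected from its C and G bases, to 4 at the printed Kcnip3 promoter, where it was 0.213. Elavl3 encodes a neuronal RNA-binding protein and Kcnip3 a calcium-binding partner of potassium channels. Mcrs1, which encodes a subunit of the INO80 complex, had 28 CG dinucleotides and a ratio of 0.991, and Cldn5, the endothelial tight junction gene, had 12 and a ratio of 0.476. The 6 do not span the full range of promoters in absent peaks. The promoter of Rbm38, with INO80, had 37 CG dinucleotides and a ratio of 1.22. A promoter of Tmem19, without INO80, had 33 and a ratio of 0.864.

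Fewer absent peaks than other wide peaks were overlapped by INO80, and the same held within groups of like width and position. An INO80 peak overlapped 69 of the 222 absent peaks (31.1%, 25.4 to 37.4%), against 8278 of 9918 other wide peaks (83.5%, 82.7 to 84.2%), with 82.3% for all wide peaks together (Wilson 95% intervals, which cover counting error only). The odds ratio was 0.0894 (0.0659 to 0.1202, Fisher's exact test, two-sided, with Benjamini-Hochberg adjustment over 6 tests, adjusted p = 2.58e-64). Units of this and the following tests are peaks, which are not independent along a chromosome, so the p-values compare lists rather than animals. Within groups of like width and like position relative to genes, the odds ratio was 0.209 (Mantel-Haenszel, 0.150 to 0.289). INO80 peaks that came close without touching were few, at 3 of the 222 absent peaks and 42 of the 9918 other wide peaks within 2 kb.

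About 3 in 4 of the absent peaks lay away from genes' ends. A gene end is the first or last annotated base of a protein-coding gene in the RefSeq table, without regard to strand, and a peak counted as lying there if it came within 1 kb. That was so for 58 of 222 absent peaks (26.1%, 20.8 to 32.3%) and 6997 of 9918 other wide peaks (70.5%, 69.6 to 71.4%), with 69.6% for all wide peaks. The odds ratio was 0.148 (0.107 to 0.201, Fisher's exact test, adjusted p = 7.21e-41). A further 68 absent peaks (30.6%) lay inside a gene without an end nearby and 96 (43.2%) between genes, against 16.8% and 12.7% of the other wide peaks. Start sites inside a gene do not count as ends. Some peaks inside genes therefore hold an annotated start site, such as those at Foxred2, Mpp2, Fndc11 and Kcnn1. The peak at Fndc11, without INO80, is counted below as having neither INO80 nor a gene end. The median distance to the nearest gene end was 11143.5 bp for absent peaks and 0 bp for the other wide peaks, which often span one. The table gives no exons, so exonic and intronic positions were not separated.

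INO80 and gene ends go together, so the groups were also split by both. Neither INO80 nor a gene end was found at 134 of 222 absent peaks (60.4%, 53.8 to 66.6%) and at 1060 of 9918 other wide peaks (10.7%, 10.1 to 11.3%). Among peaks at gene ends, INO80 overlapped 39 of 58 absent peaks (67.2%) and 6417 of 6997 other wide peaks (91.7%). Away from gene ends, it overlapped 30 of 164 absent peaks (18.3%) and 1861 of 2921 other wide peaks (63.7%). The lower share of INO80 at absent peaks was thus present in both positions.

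**Figure D1:**
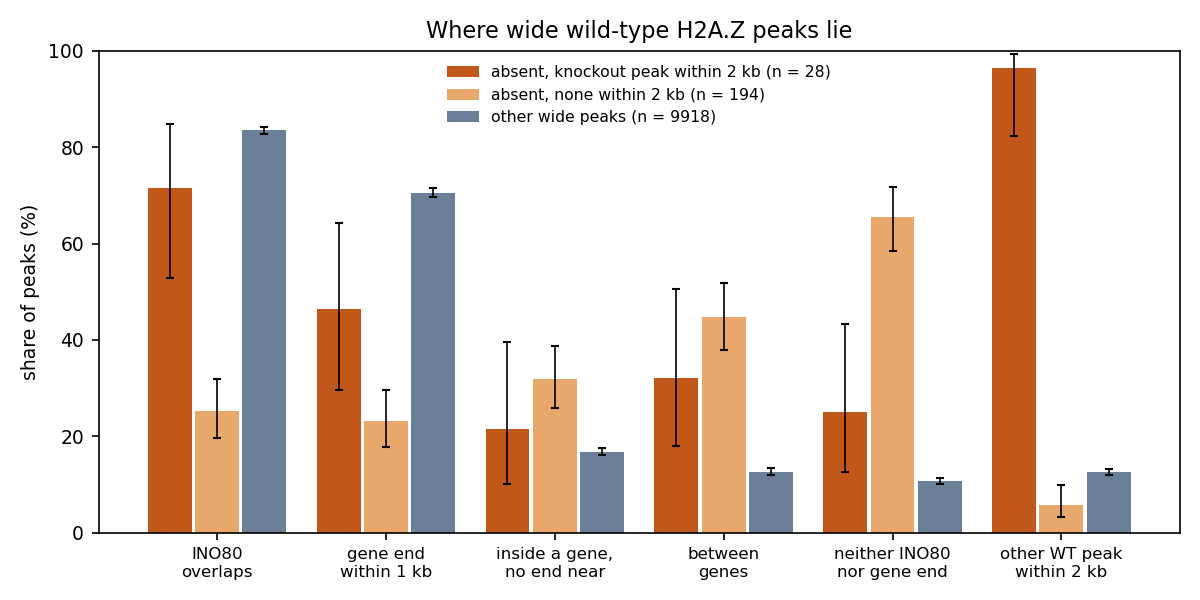
Share of peaks in percent (y axis) with each property (x axis) for the 28 absent peaks with a knockout peak within 2 kb, the 194 absent peaks without one and the 9918 other wide peaks; bars are shares and whiskers Wilson 95% intervals. INO80 overlaps 71.4%, 25.3% and 83.5% of the 3 groups in that order.

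Width and INO80 together described where peaks went missing from the knockout list. Width and knockout overlap defined the regions, so these shares are a description. With no INO80, the share of peaks that were absent was 9.44% (57 of 604) at 720 to 800 bp, 8.94% at 801 to 900 bp, 8.44% at 901 to 1000 bp, 7.27% at 1001 to 1200 bp and 6.73% (7 of 104) at 1201 to 1500 bp. With INO80, the share was 2.52% (26 of 1032), 1.80%, 0.470%, 0.396% and 0.254% (4 of 1576) in the same classes. Above 1500 bp it was 0 of 21 peaks without INO80, which allows up to 15.5% by the Wilson interval, and 1 of 1106 peaks with INO80, the one at Casz1. Peaks of 250 bp or less were absent in 73.2% of cases without INO80 and 50.1% with it.

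**Figure D2:**
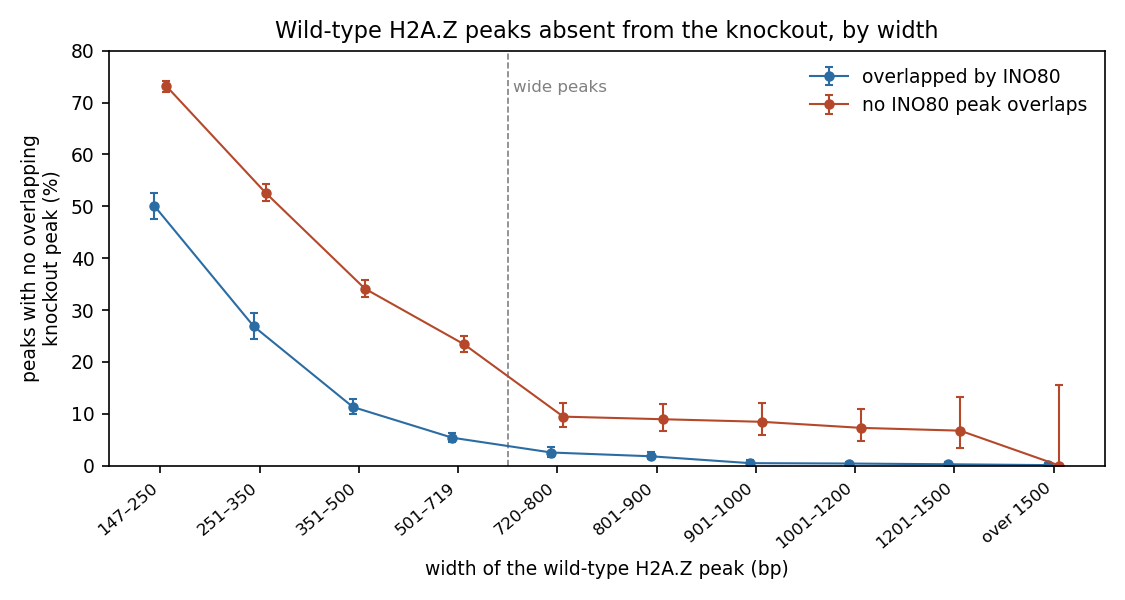
Share of wild-type H2A.Z peaks with no overlapping knockout peak (y axis, percent) by peak width in bp (x axis), for peaks with and without an overlapping INO80 peak; points are shares, whiskers Wilson 95% intervals, and the dashed line marks the width limit of the wide peaks. To the right of the line the peaks with INO80 go from 2.52% to 0.0904%, while those without it stay between 9.44% and 6.73% up to 1500 bp.

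The same counts can also be read from the side of INO80, which did not enter the choice of regions. These INO80 shares restate the relation above and are no separate support for it. INO80 was present at 31.3% of absent and 64.8% of other wide peaks between 720 and 800 bp, at 35.8% and 75.0% between 801 and 900 bp, and at 18.8% and 81.8% between 901 and 1000 bp. Between 1001 and 1200 bp it was present at 8 of 28 absent peaks (28.6%) and 88.8% of other wide peaks, and above 1200 bp at 5 of 12 (41.7%) and 95.8%. Among other wide peaks the share of INO80 was higher in each wider class, whereas among absent peaks the intervals of all 5 classes overlapped one another. Gene ends were within 1 kb of 16.9% of absent and 58.0% of other wide peaks in the narrowest of these classes and of 41.7% and 79.9% in the widest. Absent peaks were narrower in general, with a median of 843.5 bp (720 to 1915 bp) against 1008 bp (720 to 4351 bp) for the other wide peaks. The rule takes in peaks down to its limit: the narrowest absent peaks, of 720 bp, lay nearest to Med13l and in Ntm, while unpartnered peaks of 719 bp nearest to Cdkn1a and Atg4c fell just outside.

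Separating the 222 peaks by the distance of the nearest knockout peak gave 2 sets that differed in INO80. INO80 overlapped 20 of the 28 absent peaks with a knockout peak within 2 kb (71.4%, 52.9 to 84.7%) and 49 of the 194 without one (25.3%, 19.7 to 31.8%), with 31.1% for all 222. The odds ratio was 7.32 (2.87 to 20.5, Fisher's exact test, adjusted p = 5.91e-06). This comparison was not matched for gene ends or for neighbouring wild-type peaks. Such a neighbour lay within 2 kb of 27 of the 28 and 11 of the 194. Gene ends were within 1 kb of 13 of the 28 (46.4%) and 45 of the 194 (23.2%), with 26.1% for all 222 (odds ratio 2.85, 1.16 to 6.98, Fisher's exact test, adjusted p = 0.0288). This second call ended with 500 bp windows around gene ends (odds ratio 2.35, Fisher's exact test, adjusted p = 0.0631) and when peaks with a knockout peak within 500 bp were not counted as absent (1.83, adjusted p = 0.498), and the direction turned when the knockout list was cut to its widest 50% (0.909, adjusted p = 0.802).

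The 28 peaks with a knockout peak nearby mostly had another wild-type H2A.Z peak close by. Another wild-type peak lay within 2 kb of 27 of them, against 11 of the 194 others. Since 24464 of all 26199 knockout peaks overlapped a wild-type peak, the split itself favours such places, and this difference was not tested. The nearby knockout peak overlapped that or another wild-type peak in 25 of 28 cases. The nearest knockout peak had a median width of 286.5 bp (147 to 1548 bp), against 422 bp for all knockout peaks. A single INO80 peak overlapped both the absent peak and its knockout neighbour in 13 of the 28. By positions alone, a lost peak and a shifted outline cannot be told apart here, since a gap as short as 37 bp, at Ptprs, counted as absence. At the other edge, 2 of the 9918 other wide peaks had less than 10% of their length covered by knockout peaks, the smallest overlap being 34 bp near Rasl10b.

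Casz1, which encodes a zinc finger transcription factor, held the widest absent peak (chromosome 4, 148805349 to 148807263, 1915 bp). A knockout peak of 914 bp ended 388 bp away (148804047 to 148804960), and an INO80 peak of 4001 bp covered both. Slc18a3, the gene for the vesicular acetylcholine transporter, which sits inside the Chat locus, held an absent peak of 1410 bp (chromosome 14, 32463037 to 32464446), with a knockout peak of 719 bp starting 149 bp away under 1 INO80 peak of 4419 bp. Phf13, which encodes a reader of methylated histone H3, held one of 1151 bp with a knockout peak of 402 bp at a gap of 311 bp, again under a single INO80 peak (2280 bp). A knockout peak beside the missing one is what defines this set. In all 3 places that knockout peak overlapped another wild-type H2A.Z peak.

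The same layout was found at Dkk2, which encodes a secreted modulator of Wnt signalling (absent peak 992 bp, knockout peak 164 bp, gap 584 bp, INO80 peak 3558 bp), and at Rnf208 (984 bp, 204 bp, 888 bp and 2410 bp). At Sim2, which encodes a transcription factor of neural development, the absent peak of 959 bp lay 265 bp from a knockout peak of 218 bp, and this knockout peak had no wild-type partner. The other 2 of the 8 widest in this set were a peak of 1000 bp whose nearest gene is Atg7 and a peak of 972 bp whose nearest gene is Psd2, with gaps of 1461 and 1811 bp. At the first, INO80 covered the absent peak with a peak of its own, and at the second none overlapped. Only 1 pair of absent peaks lay within 20 kb of each other: 2 peaks of 877 and 895 bp on chromosome 6, nearest to the histamine receptor gene Hrh1, both overlapped by INO80, with the nearest knockout peaks 1549 and 1876 bp away.

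**Figure D3:**
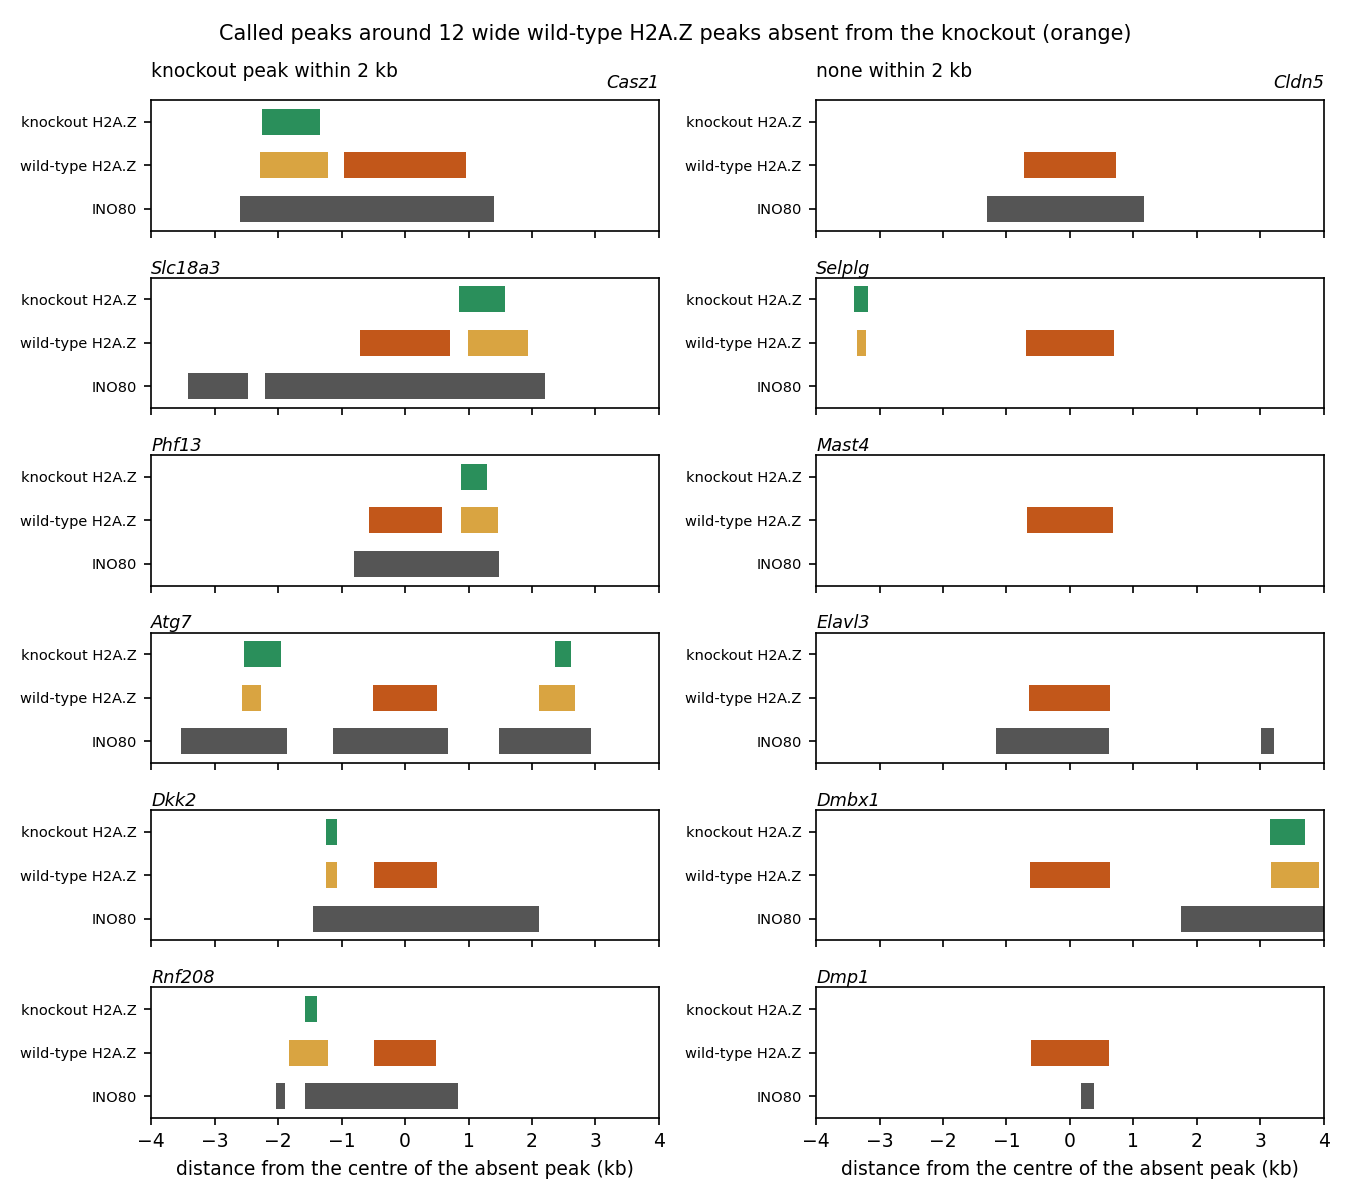
Called peaks within 4 kb of the centre of 12 absent peaks (orange), the 6 widest with a knockout peak within 2 kb (left) and the 6 widest without one (right); the x axis is the distance from that centre in kb, and the rows show knockout H2A.Z, wild-type H2A.Z and INO80 peaks. On the left each missing peak has a knockout peak beside it, while on the right 4 of the 6 places show no knockout peak in the window.

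The 194 peaks without a knockout peak within 2 kb lay at a wide range of distances from knockout peaks, of which the split itself fixes the lower limit. The gap to the nearest knockout peak had a median of 21319 bp (2354 to 1009451 bp), and 17 of them had one at up to 5 kb. Their median gap to another wild-type peak was 17539 bp, against 16307.5 bp for the other wide peaks, with a median of 4 other wild-type peaks within 100 kb in both. Close neighbours were fewer, with another wild-type peak within 2 kb of 11 of the 194 (5.67%) against 12.6% of the other wide peaks. The split itself favours this difference, and none of these was tested. Of these 194 peaks, 45 lay at gene ends, 62 inside genes and 87 between genes, and 127 (65.5%, 58.5 to 71.8%) had neither INO80 nor a gene end. There was neither an INO80 nor a knockout peak within 10 kb of 116 of them (59.8%). The split itself favours this, and no other wide peak could meet it, since a knockout peak overlaps each of those. Where INO80 did not overlap, its nearest peak was a median of 36889 bp away, close to the 35370 bp at the 1640 other wide peaks without INO80.

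The widest of the 194 lay at Cldn5, which encodes claudin 5 of endothelial tight junctions (chromosome 16, 18776386 to 18777825, 1440 bp). An INO80 peak of 2481 bp covered all of it, and the nearest knockout peak was 34328 bp away. The second widest, at Selplg, which encodes the P-selectin ligand of leukocytes (chromosome 5, 113818399 to 113819786, 1388 bp), had no INO80 peak within 45224 bp and a small knockout peak of 209 bp at a gap of 2494 bp, just beyond the 2 kb limit. The third, inside the kinase gene Mast4 (chromosome 13, 102905430 to 102906789, 1360 bp), lay 172944 bp from the nearest gene end, 94047 bp from a knockout peak and 426586 bp from an INO80 peak. At Elavl3 (chromosome 9, 22050899 to 22052174, 1276 bp), INO80 covered 97.9% of the peak, and the nearest knockout peak was 18792 bp away. The 4 widest thus include both peaks inside an INO80 peak and peaks far from any.

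The next 8 were mostly distal. Peaks of 1261 bp in the homeobox gene Dmbx1, 1228 bp in Dmp1, which encodes a matrix protein of bone and dentine, 1193 bp in the zinc finger gene Zscan18 and 1182 bp in the sodium-proton exchanger gene Slc9a9 lay inside genes without an end within 1 kb. INO80 touched those in Dmp1 and Zscan18, with peaks of 217 and 185 bp that covered 17.7% and 15.5% of the H2A.Z peak. Between genes lay peaks of 1219 bp near Gadd45g, a gene of the growth arrest and DNA damage response, 1216 bp near Ugcg, which encodes glucosylceramide synthase, 1213 bp near Cenpe, the kinetochore kinesin, and 1203 bp near Cyb5b. INO80 overlapped none of these 4, and the nearest knockout peaks were 10496 to 43853 bp away.

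The 5 absent peaks farthest from any knockout peak were peaks of 725 bp nearest to Lrrc4c (chromosome 2, 98477023 to 98477747), 1009451 bp from a knockout peak, of 851 bp nearest to Trib2 (763045 bp), of 1182 bp in Slc9a9 (320133 bp), of 746 bp nearest to Adgrl3 (297222 bp) and of 854 bp nearest to the chemokine gene Ccl1 (223042 bp). INO80 overlapped none of the 5. All but the one in Slc9a9 were under 900 bp wide.

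**Figure D4:**
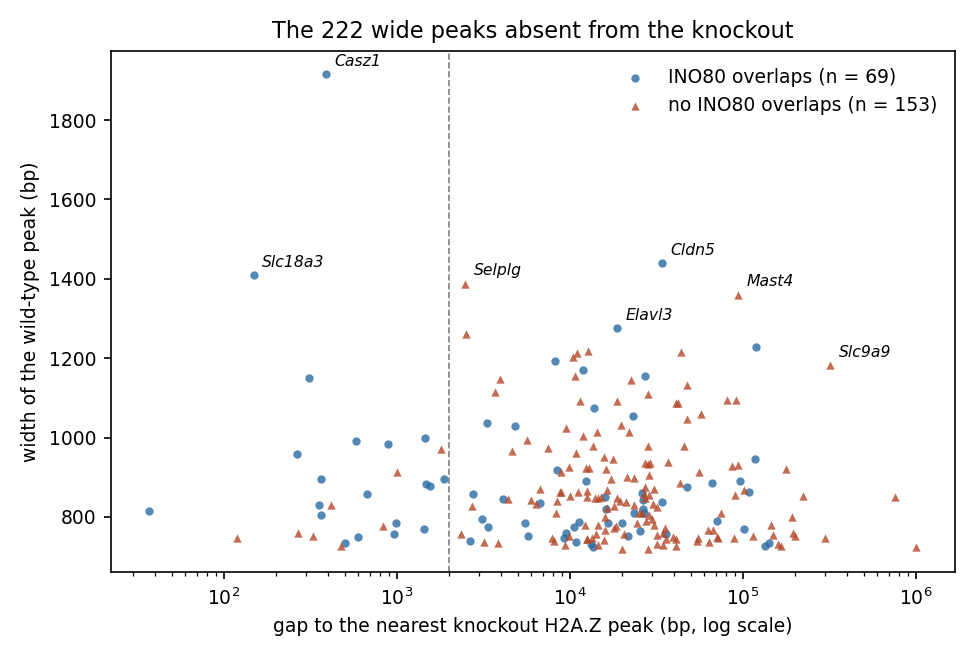
Width of each of the 222 absent peaks in bp (y axis) against the gap to the nearest knockout H2A.Z peak in bp (x axis, log scale), with circles for the 69 peaks overlapped by INO80 and triangles for the 153 others; the dashed line marks 2 kb. Circles make up 20 of the 28 points left of the line and 49 of the 194 points right of it.

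The 69 absent peaks that carried INO80 had a median of 88.0% of their length covered by it, against 86.6% for the 8278 other wide peaks with INO80. The INO80 peaks had a median width of 1140 bp (147 to 6113 bp) at absent peaks and 1013 bp (147 to 10631 bp) at the other wide peaks. They had a median of 2284 bp in the 20 cases with a knockout peak nearby and 677 bp in the 49 without. The widest, of 6113 bp (chromosome 13, 73259434 to 73265546), covered the absent peak of 886 bp at Irx4, which encodes an Iroquois homeobox factor, where the nearest knockout peak was 66674 bp away. The next were those at Sim2 (4684 bp), Slc18a3 (4419 bp), Ptma, which encodes prothymosin alpha (4075 bp), Casz1 (4001 bp) and Zfp579 (3720 bp), and all 5 had a knockout peak within 2 kb.

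Genes of known role were taken from 13 lists. An absent peak lay at an end of 63 of 21887 protein-coding genes (0.288%), and a wide wild-type peak of either kind at an end of 7864 (35.9%). There were 2 absent peaks at 27 genes for H2A.Z and for the complexes that deposit or remodel it, of which 11 had a wide peak at an end. The first (chromosome 3, 137867476 to 137868269, 794 bp, overlapped by INO80) spans the start of Dnajb14, which encodes a DNAJ chaperone, and came within 1 kb of an end of H2az1, 1 of the genes that encode H2A.Z. The peak of 372 bp at the other end of H2az1 was covered in full by knockout H2A.Z, and one of 147 bp had none, with the nearest knockout peak 294 bp away. The second, of 842 bp, lay at Mcrs1 (chromosome 15, 99251718 to 99252559) with an INO80 peak of 463 bp. Ino80 had a wild-type peak of 863 bp with 487 bp covered in the knockout and one of 161 bp without a knockout peak, and the wild-type peaks of 262 and 150 bp at H2az2 were both partnered.

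Over all protein-coding genes with a wide peak at an end, 63 of 7864 had an absent one (0.801%), and over all list genes 5 of 135 (3.70%). The lists were chosen with earlier results of these data known, so higher shares at list genes are not read as an excess. No absent peak lay at an end of the 25 spermatogonial, 40 meiotic, 30 spermatid and sperm, 20 Sertoli cell, 12 Leydig cell or 15 peritubular and stromal genes. Wide wild-type peaks lay at the ends of 12, 22, 7, 5, 3 and 4 of them, too few for a share near 0.801% to be told from 0. Of the 20 endothelial genes, 6 had a wide peak at an end, and the one at Cldn5 was absent. Of the 24 leukocyte and macrophage genes 4 had one, and the one at Selplg was absent, and of the 20 neuronal genes 6 had one, and the one at Elavl3 was absent. No absent peak lay at an end of the 60 developmental regulators, 36 polycomb complex genes or 40 cytosolic ribosomal protein genes, of which 27, 21 and 7 had a wide peak. Of 8559 protein-coding genes that were nearest to a wide peak, 219 were nearest to an absent one (2.56%). Among list genes this was so for 8 of 160 (5.0%). By nearest gene alone, absent peaks fell to Kitl, which encodes the ligand of the KIT receptor (867 bp, 101829 bp from the gene end), Cd163, a macrophage receptor gene (728 bp, 8267 bp), Wnt7b (771 bp, 18233 bp) and the polycomb gene Eed (1046 bp, 47951 bp), and INO80 overlapped none of these 4. With 5 list genes in all at an absent peak, no list can be set apart, and whether cells other than germ cells gave rise to any of these peaks was not tested.

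By median, the promoters under absent peaks were rich in CpG, though less so than under other wide peaks, with overlapping quartile ranges. A total of 40 promoters of 34 genes had their start site in an absent peak, with a median ratio of observed to expected CpG of 0.740 (quartiles 0.563 and 0.843), against 0.806 (0.667 and 0.932) for 6748 promoters in other wide peaks and 0.270 (0.132 and 0.593) for 12123 promoters without wild-type H2A.Z over the start site. The 27 with INO80 had a median of 0.764 and the 13 without it 0.645. No test was made of these medians, the groups were not matched for peak width or INO80, and several genes contribute more than 1 promoter. The printed sequences of Elavl3 and Mcrs1 lie above the upper quartile of absent peaks and those of Cldn5 and Kcnip3 below the lower.

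Simple promoter motifs were counted on both strands of the 300-base windows. GGGCGG, the GC box, was found in 29 of 40 promoters in absent peaks (72.5%) and 74.9% of those in other wide peaks, with 46.2% of all 21263 promoters of protein-coding genes. TATAAA was found in 5 of 40 (12.5%) and 4.22%, with 12.6% of all promoters, and CCAAT in 14 of 40 (35.0%) and 32.3%, with 38.2% of all. CCATNTT, the core of the motif of YY1, a sequence-specific factor that associates with INO80, was found in 5 of 40 (12.5%) and 11.9%, with 15.1% of all promoters. Windows can overlap, so these are counts of promoters and not of separate sites. The TATAAA matches at Retsat and Elmod3 are the same site, as are the CCATNTT matches at Ccdc189 and Rnf40. A match describes the letters and does not show binding.

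**Figure D5:**
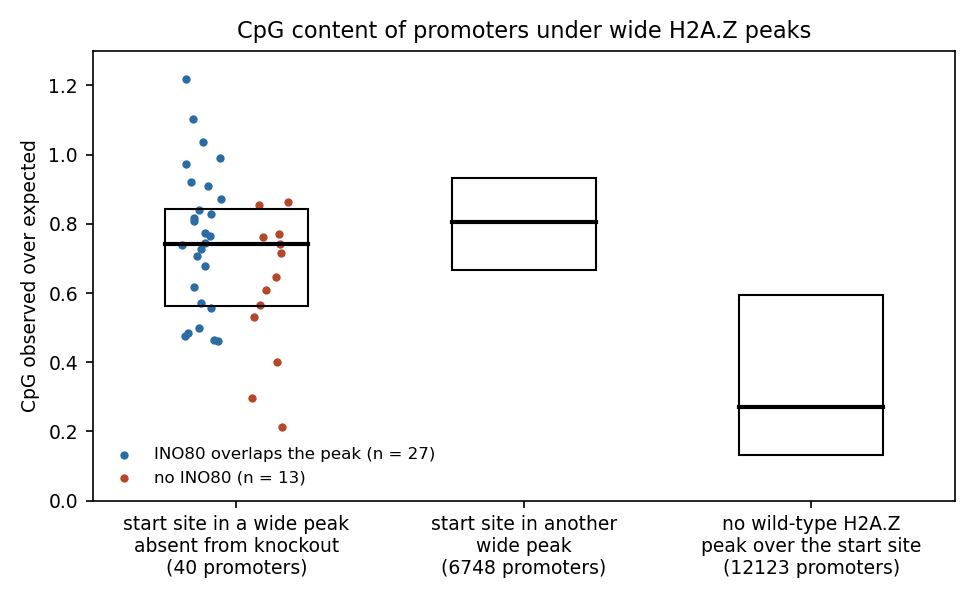
Ratio of observed to expected CpG (y axis) in the 300-base promoters whose start site lies in an absent peak, in another wide peak or under no wild-type H2A.Z peak (x axis); boxes span the quartiles, bars are medians, and points are the 40 promoters in absent peaks. The medians are 0.740, 0.806 and 0.270.

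Absent peaks were found on all 19 autosomes and on X. Their share of wide peaks ran from 9 of 751 on chromosome 11 (1.20%, 0.632 to 2.26%) to 18 of 493 on chromosome 10 (3.65%, 2.32 to 5.70%). On the X chromosome lay 2 of 222 absent peaks (0.901%) and 107 of 9918 other wide peaks (1.08%), with 1.07% for all wide peaks (odds ratio 0.834, 0.0990 to 3.12, Fisher's exact test, adjusted p = 1.0), an interval that spans differences of several fold in both directions. Another wild-type peak lay within 2 kb of 38 absent peaks (17.1%) and 1252 other wide peaks (12.6%), with 12.7% for all (odds ratio 1.43, 0.975 to 2.05, Fisher's exact test, adjusted p = 0.0631). Within 100 kb, 370 of 1372 neighbouring wild-type peaks of absent peaks lacked a knockout peak (27.0%), against 13679 of 53034 neighbours of other wide peaks (25.8%) and 30.1% of all wild-type peaks.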

How the data were processed

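The authors deposited 3 peak lists, 1 per ChIP group, with chromosome, start and end and no score or p-value. Per the labels' protocols, dissociated testis cells were strained (40 micron), crosslinked for 30 min with formaldehyde at 0.3% and digested with micrococcal nuclease. The submitters' processing notes list Bowtie2, SAMtools, deepTools, MACS2 and mm10 with no version. The sources used here do not give the peak threshold, the control or the way libraries were combined. Input libraries were not analysed here. Width is end minus start of the BED record, and printed starts are 1-based. Genes came from the RefSeq table of GRCm38.p6, with chromosomes 1 to 19, X and Y. Its promoter table held 17492 of 21887 protein-coding genes.

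The regions, gene lists and tests were chosen with earlier results of these data known. Genes named are those at the widest absent peaks of each set, at the farthest, at the widest INO80 peaks, of the lists and at the limits of the rule; Rasl10b, Dnajb14 and the printed promoters were chosen after their values were seen. The matched odds ratio used 10 width groups crossed with gene-end class. Python 3.11.15, scipy 1.17.1, statsmodels 0.14.6, pandas 2.3.3 and matplotlib 3.10.9 were used. Overlaps were equal to those of bedtools 2.31.1, and the tests were tested on simulated data.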

Additional observations from a re-analysis of the deposited data

How the results depend on the processing

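The odds ratio of INO80 at absent against other wide peaks kept its direction and call in 8 of 8 alternatives (0.0384 to 0.165), the matched one in 10 of 10 (0.0762 to 0.335), and that of gene ends in 9 of 9 (0.128 to 0.320), start sites of the promoter table and peaks without a close neighbour included, which were chosen after seeing the data. INO80 at absent peaks with against without a knockout peak within 2 kb did so in 8 of 8 (4.78 to 10.8); with peaks over 1000 bp no finite ratio could be had. Gene ends in that comparison gave 1.83 without knockout peaks within 500 bp, 2.35 with 500 bp windows and 0.909 against the widest 50% of knockout peaks, and kept their call in the other 6. The odds ratio for the X chromosome turned to 1.54 against that same widest 50%, and that for a neighbouring wild-type peak to 0.936 when no knockout peak was allowed within 500 bp; neither passed the threshold in any setting, and the cause was not tested. The number of absent peaks follows the rule: 1005 (6.40%) over 500 bp, 40 (0.784%) over 1000 bp, and 1505 (14.8%) after halving the knockout list to its widest peaks, where fewer knockout peaks are left to overlap by construction. No paired analysis was possible because each list stands for both libraries of a group, and for the same reason no library could be left out. Depth is unknown.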

Other observations

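A further 4 genes with an absent peak at an end were picked out after their values were seen and belong to no list, and they stand for no group of genes. There was a peak of 924 bp at Spem2, a relative of the spermatid gene Spem1, without INO80. D1Pas1, an autosomal DEAD-box helicase gene of the testis, had a peak of 862 bp under an INO80 peak of 1475 bp, with the nearest knockout peak 108305 bp away. Nasp, which encodes a histone chaperone of testis and somatic cells, had one of 809 bp with an INO80 peak of 560 bp, and Dppa4, a gene of pluripotent cells, one of 806 bp with no INO80 peak within 709285 bp.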
